A study of Saccharomyces cerevisiae with 90 samples.

Results

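Daughter cell separation genes were followed in budding yeast across changes of growth form, transcription factor deletions and altered Ras and cyclic AMP (cAMP) signalling. The set holds 9 genes chosen by name: CTS1, EGT2, SCW11, DSE1, DSE2, DSE3, DSE4, SWI5 and AMN1. Each had 1 probe set in each of the 2 array tables, among 5562 genes in the table of colonies and 5560 genes in the table of cells from synthetic complete (SC) medium. Levels in the colony table are on the log2 scale, so a difference of 1 is a doubling of signal.

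Colonies were grown for 10 h on plates, in 70 arrays and 21 groups. All deletion strains and the filamentous wild type grew on synthetic low-ammonium dextrose with uracil and histidine. The background is G85, whose ploidy the labels do not give. The double deletion strains were tec1-cup9, tec1-sfl1, tec1-sok2, tec1-skn7, cup9-sfl1, cup9-sok2, cup9-skn7, sfl1-sok2, sfl1-skn7, sok2-skn7, cup9-yap6, sfl1-yap6 and sok2-yap6, with 3 arrays each. Of the single deletion strains, tec1 and cup9 had 5 arrays each, while skn7, sfl1, sok2 and yap6 had 3. Genes were replaced by bcKanMX4 or, for yap6, by NatMX4. The wild type G85 was measured as the filamentous form on the same medium with 3 arrays and as the yeast form on synthetic complete dextrose medium with 6 arrays. Form and medium therefore changed together and cannot be told apart.

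The SC medium table holds 20 arrays of MATa/alpha diploids in 10 groups. The ira1 strain (ira1::HIS3/ira1::LEU2 with the empty plasmid pRS316) and the ira2 strain (ira2::HIS3/ira2::LEU2 with pRS316) lack inhibitors of Ras. The ira1RA strain is the same ira1 deletion with pRS316-IRA1RA, in which the active arginine is replaced by alanine. The ras2v19 and ras2a22 strains carry a dominant-active and a dominant-negative RAS2 allele on pRS316. These 5 mutants had 2 arrays each and were set against a wild type with pRS316 and 4 arrays. Strains lacking RAS1, RAS2 and PDE2, which neither make cAMP through Ras nor degrade it through Pde2, were given 0, 0.5, 1 or 2 mM cAMP, with 2, 1, 1 and 2 arrays. The 0 mM arrays came from strain SR959 with the plasmid pRS315 and the others from strain SR957 without it, so strain and cAMP cannot be told apart between 0 mM and the other doses. All strains of this table are ura3-52/ura3-52, and the ira1, ira1RA, ira2 and cAMP strains also carry leu2::hisG and his3::hisG on both chromosomes. The cAMP strains are ras1::HIS3, ras2delta and pde2::kanR on both chromosomes and TRP1+/trp1::hisG. The labels do not say how many clones or cultures stand behind the arrays of a group, so p-values measure the spread between these samples, which may be technical.

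A budding yeast cell divides by building a septum between mother and daughter, which the daughter then digests from its own side. The digesting enzymes are made at the end of mitosis and in early G1, under the RAM kinase network and transcription factors of the Swi5 family. In filaments, elongated cells stay attached to each other after division. CTS1 encodes the endochitinase of the septum, EGT2 a cell wall protein needed for separation, and DSE4 an endoglucanase that acts on the septum. SCW11 and DSE2 encode secreted proteins related to glucanases, and DSE1 and DSE3 encode other daughter-specific proteins. SWI5 encodes one of the transcription factors, and AMN1 a daughter protein that turns off the mitotic exit network.

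Array medians of the colony table were 6.27 to 6.68 on the log2 scale, and the number of arrays limits the precision. DSE1, DSE3 and SWI5 were below the median of their array on 70 of 70 arrays. In SC medium the values are linear intensities with array medians of 28 to 30, and the lowest value, 1, made up 6.77 to 25.6 percent of each array. Deleted genes were low in the strains labelled as lacking them, with these exceptions. The library labelled tec1 replicate 1 read 8.68 for TEC1 and 4.07 for CUP9, and the library labelled cup9 replicate 4 read 4.57 for TEC1 and 8.21 for CUP9. The strain labelled cup9-yap6 kept CUP9 levels up to 8.38, inside the range of strains not labelled cup9. YAP6 was dim throughout, at 2.32 to 3.07 where labelled deleted, against 2.84 to 4.34 in the other arrays. The libraries farthest from their own group over all genes were tec1-sok2 replicate 1 and sfl1-sok2 replicate 1, with residual standard deviations of 0.50 and 0.34 against a median of 0.21. Changes in tec1 and cup9, the departures of their pairs and the changes in tec1-sok2 and sfl1-sok2 are given also without these 4 libraries, while no fit replaces the strain labelled cup9-yap6.

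The first comparison asked how the separation genes differ between the filamentous and the yeast form of the wild type. Of the 9 genes, 7 were lower in the filamentous form and none was higher by the test (limma over all genes, Benjamini-Hochberg adjusted p under 0.05, two-sided). Of all genes, 44.9% passed in this comparison, 1203 higher and 1293 lower. The median change of the 9 genes was -0.98, against 0.05 over all genes. The 2 genes that did not pass were DSE3 and SWI5.

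DSE4, the septum endoglucanase, read 7.88, 7.68 and 7.65 in the 3 filamentous arrays, against 8.85 to 9.82 with a median of 9.39 in the 6 yeast-form arrays. The groups did not overlap, and the change was -1.63 ± 0.25 (SE), or 3.10-fold lower, with a limma adjusted p of 9.31e-07. EGT2 read 7.76, 7.75 and 7.34 in the filamentous form and 8.94 to 9.34, median 9.11, in the yeast form. Its change of -1.50 ± 0.23 is 2.83-fold lower, and again no array overlapped. SCW11 read 6.93, 6.91 and 6.50 in the filamentous form and 7.82 to 8.15, median 8.11, in the yeast form. It was 2.39-fold lower, with a change of -1.25 ± 0.26.

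DSE2 read 9.89, 9.80 and 9.67 in the filamentous form and 10.47 to 11.04, median 10.96, in the yeast form, a change of -1.06 ± 0.23. CTS1, the endochitinase, read 10.30, 10.67 and 10.29 in the filamentous form and 11.14 to 11.64, median 11.39, in the yeast form, a change of -0.98 ± 0.24 or 1.97-fold lower. Like DSE4, EGT2 and SCW11, DSE2 and CTS1 thus separated the forms array by array. DSE1 read 3.94, 3.94 and 3.86 against 4.51 to 4.94 with a median of 4.74 in the yeast form, a change of -0.80 ± 0.23. AMN1, the mitotic exit antagonist, read 7.38, 7.11 and 7.19 against 7.84 to 8.09 with a median of 7.94 in the yeast form, a change of -0.73 ± 0.15. Adjusted p-values of the 7 genes ran from 5.78e-07 for EGT2 to 0.0038 for DSE1 (limma).

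DSE3 read 4.52, 4.43 and 4.29 in the filamentous form and 4.55 to 4.98, median 4.63, in the yeast form. Its arrays did not overlap, but the change of -0.28 ± 0.15 had an adjusted p of 0.131 in limma. In a fit of only these groups, DSE3 passed with an adjusted p of 0.0289. SWI5 read 5.19, 4.89 and 5.11 in the filamentous form and 4.77 to 5.14, median 4.94, in the yeast form, so the groups overlapped (change 0.12 ± 0.21, limma adjusted p 0.658). Arrays did not overlap for 8 of the 9 genes, against 55.3% of all genes. In these bulk colonies, fewer cells at the stage that makes a transcript and less of that transcript per cell cannot be told apart.

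**Figure D1:**
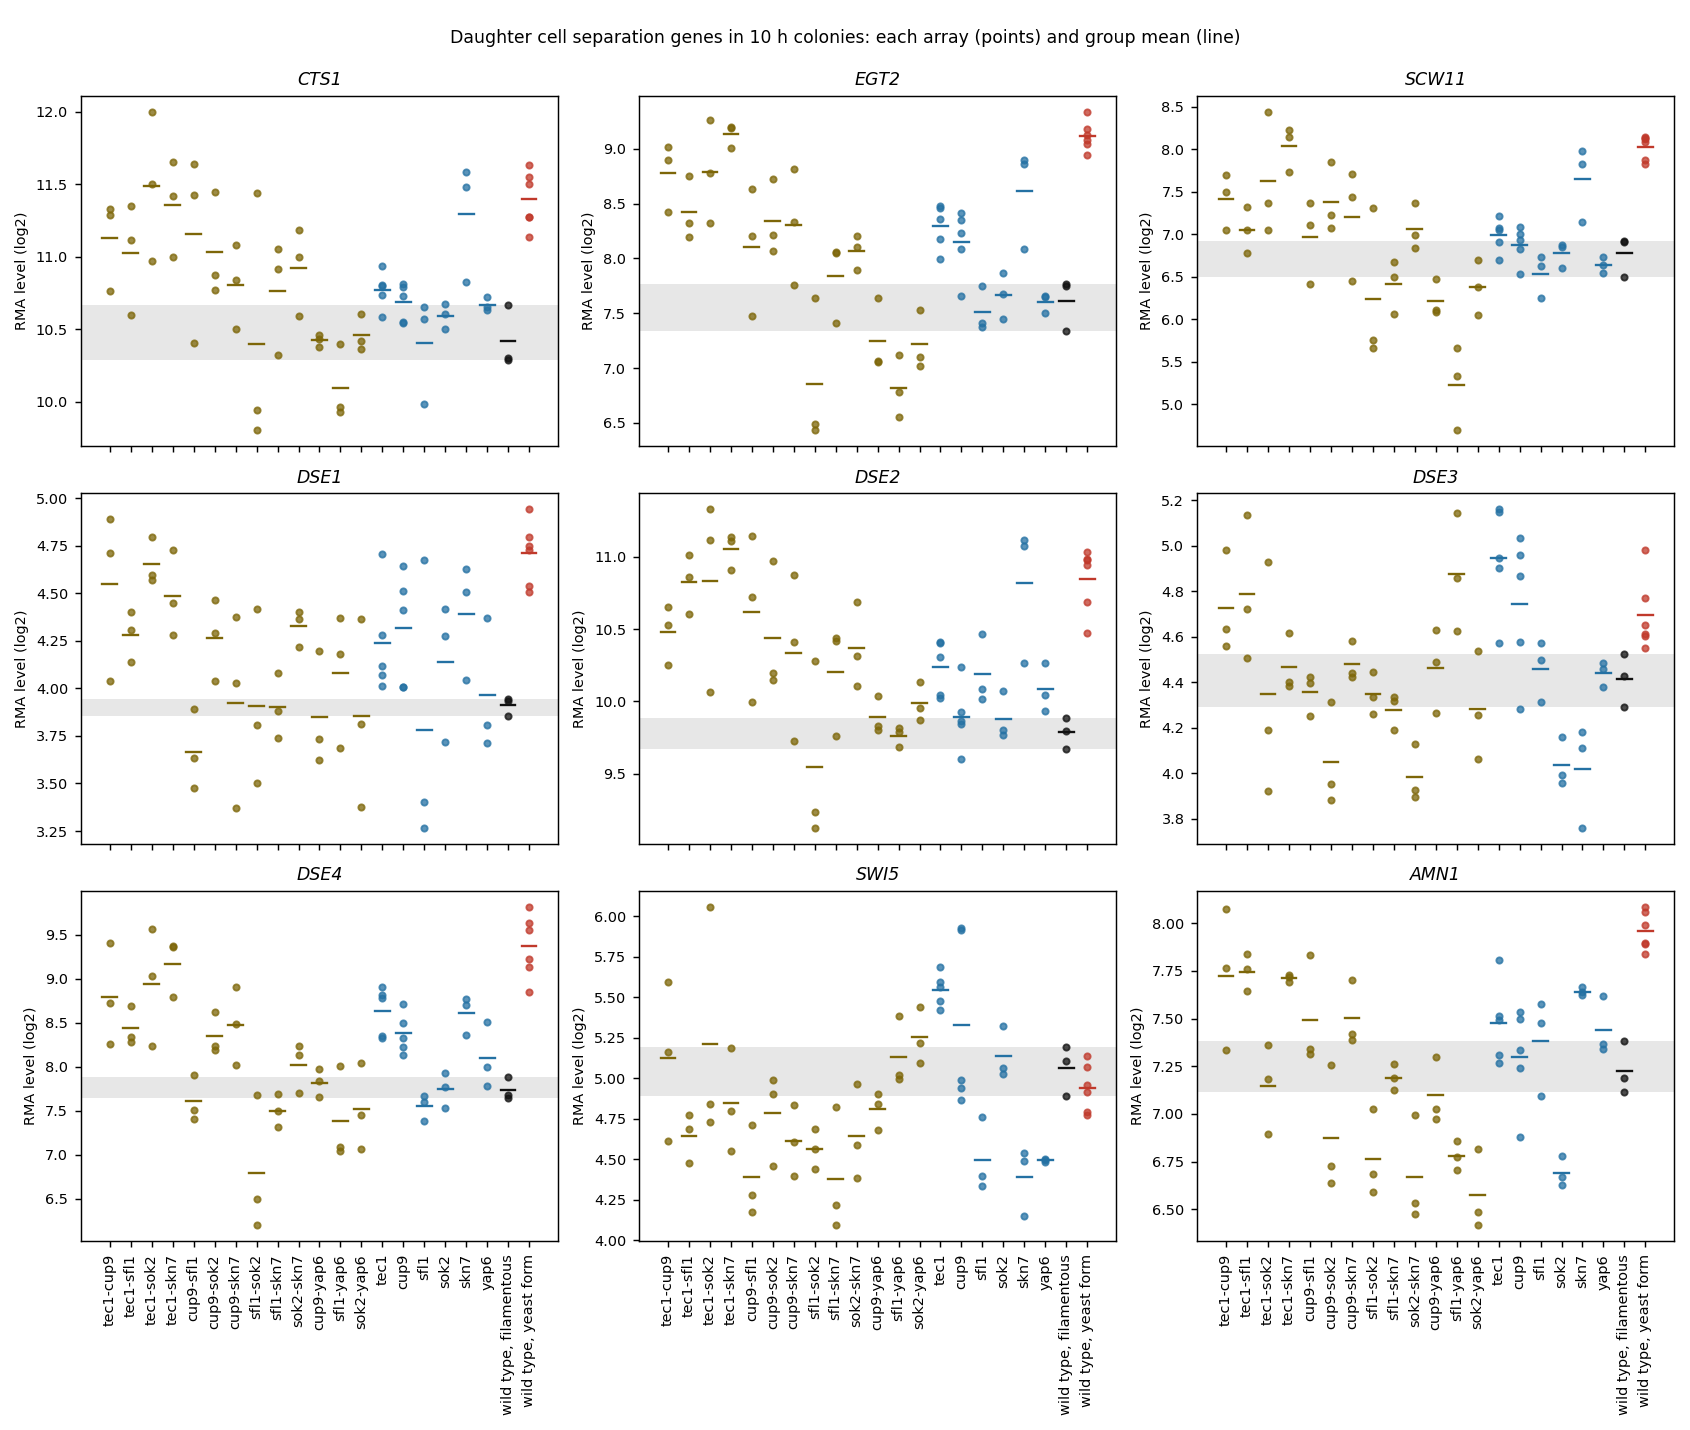
RMA level (log2) of the 9 genes on each of the 70 colony arrays (points), with group means (lines) and the range of the 3 filamentous wild-type arrays shaded. EGT2, DSE2 and DSE4 lie above the shaded range on all 12 arrays of the tec1 pairs (tec1-cup9, tec1-sfl1, tec1-sok2 and tec1-skn7), and SCW11 has its lowest group mean in sfl1-yap6.

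Lists of related genes were read in the same comparison, against the 44.9% of all genes that passed there. Of 11 other genes expressed between M phase and G1, 6 fell and none rose, with a list median of -0.46. The largest changes were those of PRY3 (-1.31), ASH1 (-1.20), which encodes a daughter-specific repressor of mating type switching, BUD9 (-1.02), a landmark of the proximal pole, and PCL9 (-0.93), a G1 cyclin. Of 8 genes for building the septum, 4 fell and none rose, with a median of -0.49. They were CHS1 (-2.35), the chitin synthase that repairs the wall after separation, CHS2 (-0.89), which makes the primary septum, CHS3 (-0.71) and SUN4 (-0.77). Of 7 measured genes of the RAM network list, CBK1 (0.43), its kinase, rose while TAO3 (-0.57) and SSD1 (-1.19), an RNA-binding target of the kinase, fell, and the median was 0.17. The eighth gene of that list was not analysed here.

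Genes of neighbouring cell cycle stages did not share one direction. Of 9 measured genes of the CLB2 cluster, expressed in G2 and M phase, CLB2 fell by 0.96 and CDC5 rose by 0.47, with a list median of 0.04. Of 9 G1 to S genes, 4 rose, among them SWI4 (0.67), CLN1 (0.54) and POL30 (0.50), and RNR1 (-1.07) fell, with a median of 0.27. The counts called in the M to G1, septum, RAM and G1 to S lists lie near the share of all genes. Of 8 haploid and mating type markers 1 fell, STE3 (-0.43), and of 6 sporulation markers none passed by limma (0 also at an unadjusted p under 0.05), with medians of 0.07 and 0.05. The summed log2 level of the haploid markers was 34.4 to 35.4 in the filamentous arrays and 33.9 to 35.6 in the yeast-form arrays. For sporulation markers it was 20.80 to 21.17 in filamentous arrays and 20.30 to 21.05 in yeast-form arrays.

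The single deletions asked how each regulator bears on these genes in filamentous colonies. The skn7 deletion, which removes a transcription factor of the oxidative and osmotic stress responses, was the one with calls among the 9 genes: 6 rose and 1 fell. Of all genes, 37.1% passed in skn7, 891 higher and 1170 lower, and the median change of the 9 genes was 0.88 against -0.05 over all genes. EGT2 read 8.90, 8.09 and 8.86 in skn7 and 7.76, 7.75 and 7.34 in the filamentous wild type, a change of 1.00 ± 0.26 or 2.00-fold (limma adjusted p 0.0036). DSE2 read 11.12, 10.26 and 11.07 in skn7 and 9.89, 9.80 and 9.67 in the wild type, a change of 1.03 ± 0.27 (limma adjusted p 0.00314). Neither gene's groups overlapped, and in both the second skn7 array lay closest to the wild type.

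CTS1 read 11.59, 10.83 and 11.48 in skn7 and 10.30, 10.67 and 10.29 in the wild type, a change of 0.88 ± 0.27. SCW11 read 7.98, 7.14 and 7.83 in skn7 and 6.93, 6.91 and 6.50 in the wild type, and DSE4 read 8.70, 8.36 and 8.77 in skn7 and 7.88, 7.68 and 7.65 in the wild type, each a change of 0.88. AMN1 read 7.62, 7.66 and 7.64 in skn7 and 7.38, 7.11 and 7.19 in the wild type, a change of 0.41 ± 0.17 (limma adjusted p 0.0461). SWI5, the transcription factor, moved the other way, with 4.15, 4.49 and 4.54 in skn7 and 5.19, 4.89 and 5.11 in the wild type (change -0.67 ± 0.24). DSE1 (0.48, adjusted p 0.143) and DSE3 (-0.40, adjusted p 0.0733) did not pass in limma. Their arrays did not overlap either, but how many of all genes lack overlap in skn7 was not counted. DSE1 passed in a fit of skn7 and the wild type alone (adjusted p 0.0393) and DSE3 in a fit without tec1-sok2 replicate 1 and sfl1-sok2 replicate 1 (adjusted p 0.0447, both limma).

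The calls of EGT2 and DSE2 in skn7 remained without any of the 6 arrays, and CTS1 missed the threshold only without skn7 replicate 1 (adjusted p 0.0941 by limma). For SCW11, DSE4, SWI5 and AMN1 the call depended on single libraries. Of the 7 calls 2 were kept without skn7 replicate 1, 4 without skn7 replicate 3 and 3 without filamentous wild-type replicate 3. AMN1 missed the threshold without any skn7 array or wild-type replicate 2 or 3, and SWI5 also missed it without wild-type replicate 1 (change -0.61, adjusted p 0.0889 in limma). With 1 array left out, the changes were 0.71 to 1.13 for SCW11, 0.80 to 1.00 for DSE4, -0.76 to -0.55 for SWI5 and 0.36 to 0.49 for AMN1.

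Genes of the other lists were read in skn7 against the 37.1% of all genes that passed there. Of the 8 septum genes 4 rose, SUN4 (1.16), CHS2 (0.90), CHS1 (0.86) and CHS3 (0.76), and 2 fell, MYO1 (-0.64) and HOF1 (-0.64), whose products act at the contractile ring, with a list median of 0.36. Of the CLB2 cluster 4 of 9 fell and none rose, CDC20 (-0.76), BUD4 (-0.70), KIN3 (-0.54) and CDC5 (-0.46), with a median of -0.17. Of the 11 other M to G1 genes PRY3 (1.15) and BUD9 (0.47) rose and SIC1 (-0.999), the inhibitor of S phase cyclins, fell, with a median of 0.05. In the RAM list of 7 TAO3 (0.72) and SSD1 (0.71) rose and CBK1 (-0.55) and MOB2 (-0.77) fell, with a median of -0.30. Of the 9 G1 to S genes RNR1 (0.67) rose and SWI4 (-0.62) and CDC21 (-0.57) fell. The counts called in the CLB2, G1 to S and M to G1 lists lie near the share of all genes. The haploid markers summed to 35.4 to 36.8 in skn7 and 34.4 to 35.4 in the wild type, 1 of the 8 passed, STE3 (0.57), and their part in the changes of the separation genes was not tested.

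In tec1, which lacks the transcription factor that drives filamentation genes, none of the 9 genes passed in limma, against 0.126% of all genes, and 4 of the 9 had an unadjusted p under 0.05, against 8.65% of all genes. The point estimates were positive for 9 of 9 genes, with a median of 0.45 against 0.05 over all genes. DSE4 read 8.33, 8.35, 8.90, 8.81 and 8.78 in the libraries labelled tec1 and 7.88, 7.68 and 7.65 in the wild type, a change of 0.90 ± 0.26 with a limma adjusted p of 0.131. EGT2 read 8.17, 7.99, 8.46, 8.48 and 8.36 in tec1 and 7.76, 7.75 and 7.34 in the wild type (0.68 ± 0.24, adjusted p 0.244). No array overlapped for either gene, and the share of all genes without overlap was not counted for tec1. Leaving out tec1 replicate 1 together with cup9 replicate 4, DSE4 changed by 0.98, EGT2 by 0.71 and DSE3 by 0.62, with limma adjusted p-values of 0.114, 0.257 and 0.0648, and 0.252% of all genes passed. DSE4 did pass in a fit that left out tec1-sok2 replicate 1 and sfl1-sok2 replicate 1 (0.90, limma adjusted p 0.0407).

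In cup9, lacking a repressor of peptide uptake, 0 of the 9 genes passed in limma against 0.342% of all genes. As in tec1, the point estimates were positive for 9 of 9 genes, with a median of 0.27 against 0.03 over all genes. At an unadjusted p under 0.05 there were 3 of the 9, against 11.2% of all genes. DSE4 was nearest, with 8.23, 8.32, 8.50, 8.71 and 8.13 in the libraries labelled cup9 against 7.88, 7.68 and 7.65 in the wild type (0.64 ± 0.26, adjusted p 0.312), and 0.56 without the libraries whose labels are in doubt. There, 0.414% of all genes passed and again none of the 9.

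The sfl1, yap6 and sok2 deletions likewise gave 0 calls among the 9 genes in limma, while 24.8%, 23.6% and 1.17% of all genes passed. At an unadjusted p under 0.05 there were 1, 1 and 2 of the 9, against 39.3%, 36% and 11.2% of all genes. The sfl1 strain lacks a repressor of flocculin genes and the sok2 strain a repressor of filamentation. SWI5 read 4.40, 4.34 and 4.76 in sfl1, and 4.48, 4.50 and 4.51 in yap6, each set below the wild-type values of 5.19, 4.89 and 5.11. Both changes were -0.57, with limma adjusted p-values of 0.0775 in sfl1 and 0.0805 in yap6. AMN1 read 6.63, 6.67 and 6.78 in sok2 and 7.38, 7.11 and 7.19 in the wild type, a change of -0.53 ± 0.17 with a limma adjusted p of 0.119. In limma fits of only the groups compared these changes passed, with adjusted p-values of 0.0462 for SWI5 in sfl1, 0.00257 for SWI5 in yap6 and 0.0376 for AMN1 in sok2. SWI5 also passed in sfl1 under quantile normalization (adjusted p 0.0405), and in sfl1 and yap6 without tec1-sok2 replicate 1 and sfl1-sok2 replicate 1 (adjusted p 0.0425 and 0.0434).

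Of the gene lists, the CLB2 cluster had 4 of 9 genes called in sfl1, where 24.8% of all genes passed. They were CDC5 (-0.84), CDC20 (-0.75), BUD4 (-0.62) and KIN3 (-0.36), all lower, and the list median was -0.36 against -0.08 over all genes. Of the other lists, sfl1 also held calls for CHS1 (2.27), SIC1 (-0.86), SWI4 (-0.83), a G1 transcription factor, SSD1 (0.70) and ASH1 (-0.67). CHS1 (1.37) and SWI4 (-1.07) passed in yap6 as well, with BUD3 (-0.70), CDC5 (-0.48) and CYK3 (-0.44). In sok2 the calls were CLB1 (0.88), CHS1 (0.76) and the haploid marker GPA1 (0.39). In no other single deletion but skn7 were 3 genes of a list called. The haploid markers summed to 35.45 to 37.48 in sfl1, just above the 34.38 to 35.44 of the wild type. None of the 8 passed there, and their part was not tested.

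**Figure D2:**
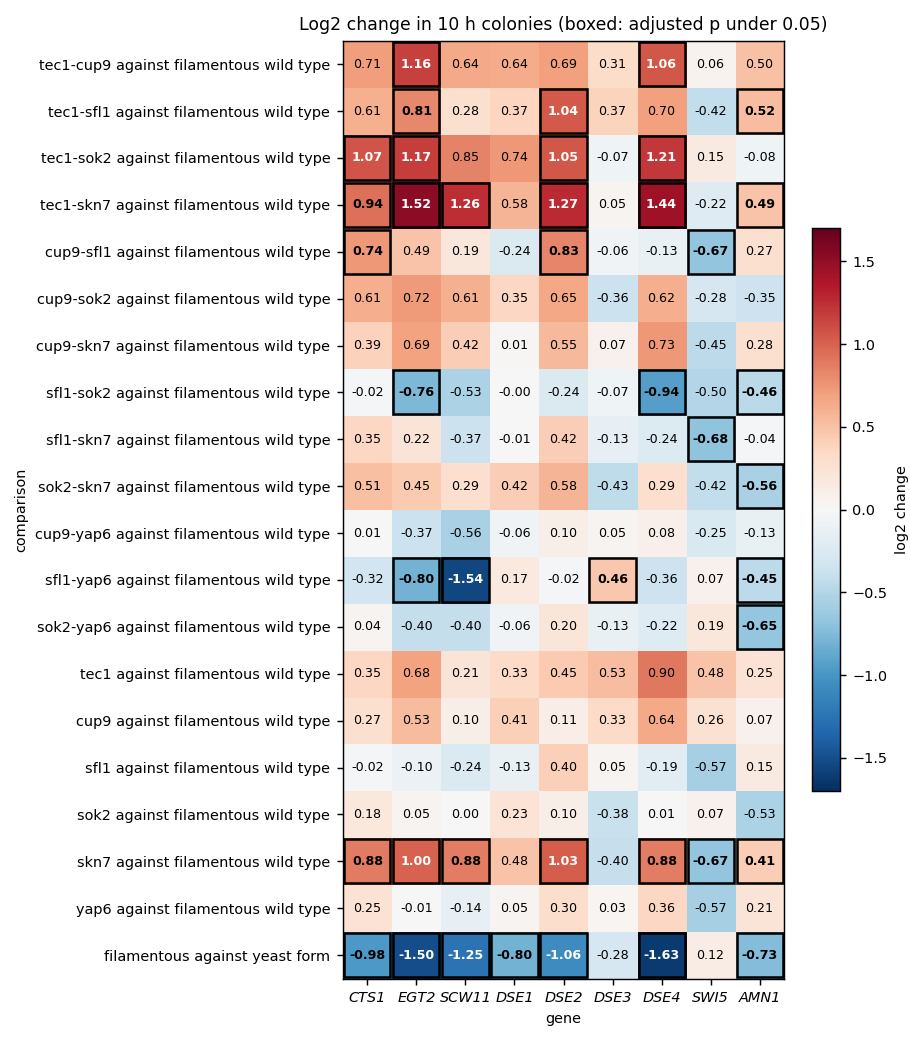
Log2 change of each gene (columns) in each colony comparison (rows), from double deletions and single deletions against the filamentous wild type to the filamentous against the yeast form. Boxes mark an adjusted p under 0.05 over all genes of the comparison. The changes run from -1.63 for DSE4 between the forms to 1.52 for EGT2 in tec1-skn7.

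The double deletions asked the same of pairs of regulators. Over the 13 strains, 28 changes of the 9 genes passed, a total that was not set against a pooled share of all genes. Strain by strain, that share ran from 1.8% in tec1-cup9 to 46.6% in sfl1-yap6. The most calls among the 9 genes were in tec1-skn7, where 6 genes rose and none fell, against 31.9% of all genes called. EGT2 read 9.01, 9.19 and 9.20 in tec1-skn7 and 7.76, 7.75 and 7.34 in the filamentous wild type, a change of 1.52 ± 0.26 or 2.86-fold (limma adjusted p 6.33e-05). DSE4 read 8.79, 9.36 and 9.36 in tec1-skn7 and 7.88, 7.68 and 7.65 in the wild type, 2.71-fold. SCW11 read 7.73, 8.23 and 8.14 in tec1-skn7 and 6.93, 6.91 and 6.50 in the wild type, 2.39-fold. These levels overlapped those of the yeast form for EGT2, DSE4 and SCW11.

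DSE2 (1.27 ± 0.27) and CTS1 (0.94 ± 0.27) rose in tec1-skn7 too, as did AMN1 (0.49 ± 0.17), while DSE1 (0.58, adjusted p 0.0862), DSE3 (0.05) and SWI5 (-0.22) did not pass in limma. EGT2, SCW11, DSE2 and DSE4 kept their calls without any 1 of the 6 arrays. CTS1 missed the threshold without tec1-skn7 replicate 2 (0.79, adjusted p 0.0509 by limma). AMN1 missed it without tec1-skn7 replicate 1 or 3 or wild-type replicate 2 or 3 (changes down to 0.43, adjusted p up to 0.083).

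The other tec1 pairs moved in the same direction. In tec1-cup9 EGT2 (1.16 ± 0.26) and DSE4 (1.06 ± 0.29) rose, where 1.8% of all genes passed. In tec1-sok2 DSE4 (1.21 ± 0.29), EGT2 (1.17 ± 0.26), CTS1 (1.07 ± 0.27) and DSE2 (1.05 ± 0.27) rose, where 10% of all genes passed. In tec1-sfl1 DSE2 (1.04 ± 0.27), EGT2 (0.81 ± 0.26) and AMN1 (0.52 ± 0.17) rose, where 18.8% of all genes passed. No gene of the 9 was called lower in a tec1 pair, but in a fit of only tec1-sfl1 and the wild type SWI5 passed as lower (-0.42, limma adjusted p 0.0336). In that fit CTS1 (0.61), DSE1 (0.37) and DSE4 (0.70) passed as higher, and DSE1 (0.58) did so in the like fit of tec1-skn7.

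Over the 12 arrays of the 4 tec1 pairs, EGT2 was 8.20 to 9.26 with a median of 8.84, against 7.34 to 7.76 in the filamentous wild type. DSE4 was 8.24 to 9.56, median 8.76, against 7.65 to 7.88, and DSE2 was 10.06 to 11.33, median 10.88, against 9.67 to 9.89. DSE1, low throughout, was 4.04 to 4.89 with a median of 4.51, against 3.86 to 3.94 in the filamentous wild type. Every array of the tec1 pairs was above all filamentous wild-type arrays for these 4 genes, which 4.05% of all genes also showed, as were 11 of 12 for CTS1 and SCW11. SWI5 did not follow, with 8 of the 12 arrays below and 2 above the wild type. For these partial counts the share of all genes was not taken.

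Single libraries decided several of these calls. In tec1-sok2, replicate 1 stood apart over all genes and was the lowest of the strain in CTS1 (10.97, 12.00 and 11.50), EGT2 (8.32, 9.26 and 8.78) and DSE2 (10.06, 11.33 and 11.12). Without it and sfl1-sok2 replicate 1, a fit chosen after seeing the data, the changes were 1.33 for CTS1, 1.41 for EGT2, 1.44 for DSE2 and 1.56 for DSE4. Without tec1-sok2 replicate 2 none of the 4 passed (0.80 to 0.93), nor did any in a fit of only this strain and the wild type (adjusted p 0.14 to 0.213 in limma). Without wild-type replicate 3, CTS1 (1.00) and DSE2 (0.99) missed the threshold, and DSE2 (0.91) did so without tec1-sok2 replicate 3.

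In tec1-cup9 both calls were lost without tec1-cup9 replicate 1, replicate 3 or wild-type replicate 3, with EGT2 still at 1.02 to 1.10 and DSE4 at 0.76 to 1.10. DSE4 was lost there without wild-type replicate 1 or 2 as well (1.13 and 1.03). In tec1-sfl1 DSE2 kept its call without any 1 array, while EGT2 and AMN1 missed it without tec1-sfl1 replicate 1 or wild-type replicate 3 (EGT2 0.65 and 0.67, AMN1 0.47 and 0.50). AMN1 also missed it without tec1-sfl1 replicate 2 (0.51) or wild-type replicate 2 (0.46). The haploid markers summed to 37.94 to 39.95 in tec1-sfl1, 35.50 to 37.91 in tec1-cup9, 36.22 to 37.66 in tec1-skn7 and 35.03 to 38.26 in tec1-sok2, against 34.38 to 35.44 in the wild type, so only tec1-sok2 overlapped it. Of the 8 markers 3 rose in tec1-sfl1, 1 in tec1-cup9, 2 in tec1-skn7 and 2 in tec1-sok2, and none fell. Of these markers STE2, the alpha-factor receptor, rose in each of these pairs, by 2.03 in tec1-sfl1, 0.84 in tec1-cup9, 0.87 in tec1-sok2 and 0.62 in tec1-skn7. The sporulation markers summed to 21.36 to 22.15 in tec1-cup9, above the 20.80 to 21.17 of the wild type, and none of the 6 passed. The part of these markers in the changes of the separation genes was not tested.

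Pairs of sfl1 held both directions. In cup9-sfl1, where 36.5% of all genes passed, DSE2 (0.83 ± 0.27) and CTS1 (0.74 ± 0.27) rose and SWI5 (-0.67 ± 0.24) fell. CTS1 read 10.41, 11.43 and 11.64 there and overlapped the wild-type values of 10.30, 10.67 and 10.29. In sfl1-skn7, where 19.4% passed, only SWI5 fell, with 4.22, 4.83 and 4.09 in the strain and 5.19, 4.89 and 5.11 in the wild type (-0.68 ± 0.24). The calls among the 9 genes in cup9-sfl1 and in sfl1-skn7 do not exceed the share of all genes. The haploid markers summed to 36.23 to 37.26 in cup9-sfl1 and 34.38 to 35.44 in the wild type, 2 of the 8 rose (MFA2 0.54 and STE3 0.62), and their part was not tested. In sfl1-sok2, where 21.4% passed, DSE4 (-0.94 ± 0.29), EGT2 (-0.76 ± 0.26) and AMN1 (-0.46 ± 0.17) fell.

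In sfl1-sok2 the replicates differed. Replicate 1, which stands apart over all genes, read 7.64 for EGT2, 7.68 for DSE4 and 11.44 for CTS1. Replicates 2 and 3 read 6.43 and 6.49 for EGT2, 6.20 and 6.50 for DSE4, and 9.94 and 9.80 for CTS1, all below the filamentous wild type. Without replicate 1 and tec1-sok2 replicate 1, DSE4 changed by -1.39 and EGT2 by -1.16 (limma adjusted p 0.000417 and 0.00181). All 3 calls were lost without sfl1-sok2 replicate 2, sfl1-sok2 replicate 3 or wild-type replicate 1, with DSE4 at -0.87 to -0.65, EGT2 at -0.69 to -0.55 and AMN1 at -0.42 to -0.37. In a fit of only this strain and the wild type none of the 3 passed either, while SWI5 did (-0.50, limma adjusted p 0.029). EGT2 (-0.70) was lost without wild-type replicate 2 as well and AMN1 (-0.48) without wild-type replicate 3. The sporulation markers summed to 21.67 to 22.21 in sfl1-sok2 and 20.80 to 21.17 in the wild type, and 1 of the 6 rose, SPS4 (0.68). The haploid markers summed to 35.50 to 35.99 in sfl1-sok2 and 34.38 to 35.44 in the wild type, and 1 of the 8 rose, STE3 (0.57). The part of these markers was not tested.

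The lowest SCW11 group mean of the table was in sfl1-yap6, where 46.6% of all genes passed. Replicates 2 and 3 of sfl1-sok2 came close, at 5.66 and 5.76 for SCW11, while replicate 1 of that strain read 7.30. SCW11 read 5.34, 5.67 and 4.70 in sfl1-yap6 and 6.93, 6.91 and 6.50 in the filamentous wild type, a change of -1.54 ± 0.30 or 2.91-fold lower (limma adjusted p 2.86e-05), and it passed without any 1 array. EGT2 (-0.80 ± 0.26) and AMN1 (-0.45 ± 0.17) fell with it. DSE3 rose there, with 4.86, 4.63 and 5.14 in sfl1-yap6 and 4.52, 4.43 and 4.29 in the wild type (0.46 ± 0.18, limma adjusted p 0.0293). CTS1 (-0.32) and DSE2 (-0.02) did not pass. The 4 calls among the 9 genes, 1 higher and 3 lower, lie near the share of all genes.

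Other libraries decided calls in the sfl1 pairs. In sfl1-yap6, EGT2 (-0.67), DSE3 (0.33) and AMN1 (-0.41) missed the threshold without replicate 3, DSE3 (0.47) and AMN1 (-0.44) without replicate 1, DSE3 without wild-type replicate 2 (0.47) or 3 (0.40), and AMN1 without wild-type replicate 1 (-0.37). In cup9-sfl1 none of the 3 calls was kept without replicate 3 (CTS1 0.50, DSE2 0.57, SWI5 -0.62), and only that of DSE2 without replicate 2 or wild-type replicate 1 or 3 (CTS1 0.60 to 0.68, SWI5 -0.65 to -0.57). In sfl1-skn7 the call of SWI5 was lost without replicate 1 or 3 or wild-type replicate 1 or 3 (-0.66 to -0.54).

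AMN1 fell in 3 of the 5 sok2 pairs. It read 6.49, 6.82 and 6.42 in sok2-yap6, 6.536, 6.996 and 6.477 in sok2-skn7 and 7.02, 6.59 and 6.68 in sfl1-sok2, against 7.38, 7.11 and 7.19 in the filamentous wild type. The changes of -0.65 ± 0.17 in sok2-yap6 and -0.56 ± 0.17 in sok2-skn7 passed as well (limma adjusted p 0.00506 and 0.0328), where 14.9% and 7.34% of all genes passed. The call in sok2-yap6 was kept without any 1 array. In sok2-skn7 it was lost without sok2-skn7 replicate 1 or 3 or wild-type replicate 1 or 3 (-0.58 to -0.46). Over the 15 arrays of the sok2 pairs AMN1 was 6.42 to 7.36 with a median of 6.73, and 12 of the 15 were below and none above the 3 wild-type arrays. How many of all genes show such counts was not tested. AMN1 did not pass in tec1-sok2 (-0.08) or cup9-sok2 (-0.35).

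In cup9-sok2, cup9-skn7 and cup9-yap6 none of the 9 genes passed in limma, while 10.6%, 14.1% and 22% of all genes did. At an unadjusted p under 0.05 there were 6, 3 and 0 of the 9, against 30%, 32.5% and 34.2% of all genes. EGT2 changed by 0.72 in cup9-sok2 (adjusted p 0.0639) and by 0.69 in cup9-skn7 (adjusted p 0.0676 in limma). These counts of 0 depended on the fit. With only the groups compared, CTS1 (0.61), EGT2 (0.72), DSE2 (0.65) and DSE4 (0.62) passed in cup9-sok2, DSE4 (0.73) passed in cup9-skn7 and SCW11 (-0.56) passed in cup9-yap6, with limma adjusted p-values of 0.0188 to 0.0423. Without tec1-sok2 replicate 1 and sfl1-sok2 replicate 1, EGT2 and DSE2 passed in cup9-sok2 (adjusted p 0.031 and 0.0405) and EGT2 and DSE4 in cup9-skn7 (adjusted p 0.0332 and 0.0344 in limma). That fit also called CTS1 (0.61) and DSE4 (0.70) in tec1-sfl1. The haploid markers summed to 36.02 to 37.04 in cup9-skn7, above the 34.38 to 35.44 of the wild type, none of the 8 passed, and their part was not tested. Over the 9 arrays of the yap6 pairs EGT2 was 6.55 to 7.63, with 7 of 9 below the wild type, and SCW11 was 4.70 to 6.69, with 8 of 9 below. AMN1 had 8 below and CTS1 had 2 below, with none above. DSE1 had 5 below and 4 above, DSE4 had 4 below and 3 above, and DSE3 had 3 below and 5 above. SWI5 had 2 below and 3 above, and DSE2 had none below and 3 above. The share of all genes with such counts is not given here. All these comparisons share the 3 filamentous wild-type arrays. Without wild-type replicate 3, 15 changes passed over the 13 strains in place of 28. Leaving out 1 array also added calls. EGT2 (0.96), DSE4 (0.96) and DSE2 (0.86) passed in cup9-skn7 without replicate 3, EGT2 passed in cup9-sok2 (0.86) and cup9-sfl1 (0.81) without replicate 1 of each, and AMN1 (0.69) passed in tec1-cup9 without replicate 2. Without replicate 1, SCW11 (1.13) and DSE1 (0.77) passed in tec1-sok2 and SCW11 (-1.07) passed in sfl1-sok2.

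Each double deletion was also set against the sum of the changes of its single deletions. A departure from the sum is positive where the pair is higher than that sum. Calls among the 9 genes occurred in sfl1-yap6, for SWI5 and AMN1, where 14.3% of all genes departed. SWI5 read 5.383, 4.997 and 5.020 in sfl1-yap6, 4.40, 4.34 and 4.76 in sfl1, 4.48, 4.50 and 4.51 in yap6 and 5.19, 4.89 and 5.11 in the wild type, so the pair lay at the level of the wild type and above each single deletion. Its departure was 1.20 ± 0.34 (limma adjusted p 0.0133). AMN1 read 6.77, 6.86 and 6.71 in sfl1-yap6, below all arrays of sfl1 (7.48, 7.58 and 7.09) and yap6 (7.34, 7.62 and 7.37), with a departure of -0.81 ± 0.24 (limma adjusted p 0.0154). SWI5 kept its call without any of the 12 arrays, and AMN1 missed it without yap6 replicate 2 (-0.73, adjusted p 0.0508).

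In the other 12 pairs none of the 9 genes departed in limma. The shares of all genes that did were 2.62% in tec1-cup9, 0.036% in tec1-sfl1, 0.396% in tec1-sok2, 0% in tec1-skn7, 0.108% in cup9-sfl1, 0.827% in cup9-sok2 and 0% in cup9-skn7. They were 0.0539% in sfl1-sok2, 10% in sfl1-skn7, 0.0719% in sok2-skn7, 0% in cup9-yap6 and 0.899% in sok2-yap6. At an unadjusted p under 0.05 there were 2 of the 9 genes in tec1-cup9, 3 in cup9-skn7, 4 in sfl1-skn7, 2 in cup9-yap6 and 0 in the remaining 8 pairs. The shares of all genes at that level were 15.9% in tec1-cup9, 8.81% in cup9-skn7, 32.4% in sfl1-skn7 and 2.93% in cup9-yap6. Without tec1 replicate 1 and cup9 replicate 4, again none of the 9 genes departed in the 8 pairs with tec1 or cup9, and the lowest adjusted p was 0.227, for DSE3 in tec1-cup9 (-0.57, limma). The departure in cup9-yap6 also rests on the strain that kept CUP9. In sfl1-skn7 DSE2 departed by -1.01 ± 0.38 (adjusted p 0.0665) and SCW11 by -1.001 ± 0.43 (adjusted p 0.101 in limma). Both passed in the fit without tec1-sok2 replicate 1 and sfl1-sok2 replicate 1 (adjusted p 0.0262 and 0.0478), and DSE2 (0.89) passed in tec1-sok2 and SCW11 (-1.16) in sfl1-yap6. With 1 array left out, DSE2 in sfl1-skn7 passed without sfl1 replicate 2, skn7 replicate 2 or sfl1-skn7 replicate 1 (-1.29 to -1.10), SCW11 in sfl1-skn7 passed without skn7 replicate 2 (-1.26), and SCW11 in sfl1-yap6 passed without sfl1 replicate 2 (-1.31) or sfl1-yap6 replicate 2 (-1.38). In tec1-skn7 EGT2 departed by -0.16 ± 0.35.

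The level of each gene over all 21 groups was ordered by group mean. The filamentous wild type was never the highest or the lowest group. The highest was the yeast form for DSE1, DSE4 and AMN1, tec1-skn7 for EGT2, SCW11 and DSE2, tec1-sok2 for CTS1, and tec1 for DSE3 and SWI5. The lowest was sfl1-yap6 for CTS1, EGT2 and SCW11, sfl1-sok2 for DSE2 and DSE4, cup9-sfl1 for DSE1, sok2-skn7 for DSE3, sfl1-skn7 for SWI5 and sok2-yap6 for AMN1. Group means spanned 2.80 for SCW11, 2.58 for DSE4 and 2.31 for EGT2, and 0.96 for DSE3. Arrays of neighbours in these orders overlapped for all 20 neighbouring pairs in 7 genes, and for all but 1 in SCW11 and all but 2 in AMN1.

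The wall-digesting genes varied together. Over the 21 group means, which share the normalization of the table, the 10 Pearson correlations among CTS1, EGT2, SCW11, DSE2 and DSE4 were 0.78 to 0.94. With the group means removed, so that differences among arrays of 1 group remain, they were 0.70 to 0.87 over 70 arrays. Without tec1-sok2 replicate 1 and sfl1-sok2 replicate 1 the second range was 0.63 to 0.84. AMN1 correlated with these 5 genes at 0.58 to 0.70 over group means and 0.32 to 0.56 within groups, and DSE1 at 0.61 to 0.83 and 0.25 to 0.39. DSE3 and SWI5 did not share the pattern, with -0.15 to 0.23 and -0.20 to 0.26 over group means and -0.32 to -0.15 and -0.40 to -0.25 within groups. Over group means the 5 genes are not set apart, since DSE1 with DSE4 (0.83) lies above DSE2 with DSE4 (0.78). These correlations are descriptions, since the arrays share a table and genes are not independent. The genes were grouped with earlier results of these data known, and no range over other gene pairs is given.

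**Figure D3:**
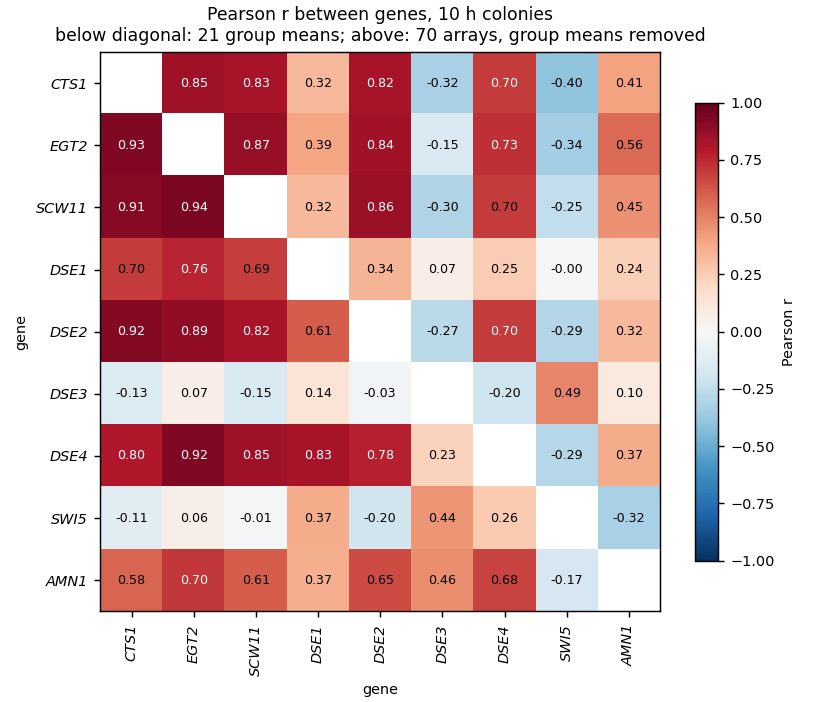
Pearson correlation between the 9 genes over the 21 colony group means (below the diagonal) and over 70 arrays with group means removed (above it). Values among CTS1, EGT2, SCW11, DSE2 and DSE4 are 0.78 to 0.94 below and 0.70 to 0.87 above the diagonal. DSE1 with DSE4 is at 0.83 below and 0.25 above it.

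Among named genes outside the set, those whose group means followed the mean of CTS1, EGT2, SCW11 and DSE1 to DSE4 most closely over the 21 groups were IZH3 (Pearson r 0.917), SNF3 (0.886), NIS1 (0.863), FET3 (0.860) and BUD9 (0.847). NIS1 encodes a bud neck protein, BUD9 a landmark of the proximal pole, SNF3 a glucose sensor, FET3 the iron-uptake oxidase and IZH3 a membrane protein of the adiponectin receptor family. Since these 5 were picked on the same 21 group means, their direction in these groups follows largely from the choice and is given as a description. The change in the filamentous against the yeast form ran from -0.34 for SNF3 to -1.57 for FET3. In tec1-skn7 it was 0.47 for NIS1 to 1.01 for FET3, and in skn7 it was lowest for NIS1 (0.18).

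**Figure D4:**
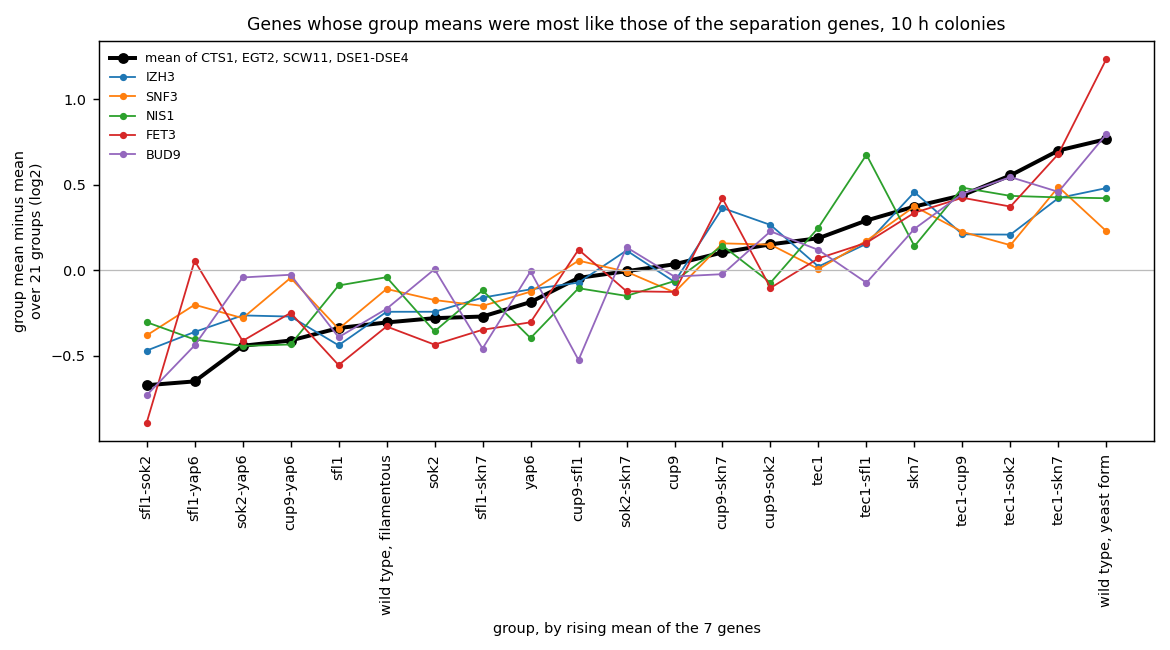
Group mean minus the mean over 21 groups (log2) of 7 separation genes together (thick line) and of the 5 genes most like them, with groups ordered by the thick line. The thick line is lowest in sfl1-sok2 and sfl1-yap6 and highest in tec1-skn7 and the yeast form of the wild type.

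In SC medium the comparisons asked how Ras activity and added cAMP bear on the same genes. Here a floor was set at an intensity of 0.993 after scaling, and values of 1 occurred for DSE3 on 4 of 20 arrays, for DSE1 on 2 and for SCW11 and DSE4 on 1 each, so changes of these genes depend on the floor. None of the 9 genes passed in ira1, ira1RA, ira2, ras2v19 or ras2a22 against the wild type in limma, where 0.234%, 0.0719%, 2.09%, 0.144% and 8% of all genes did. At an unadjusted p under 0.05 there were 0, 1, 1, 3 and 2 of the 9, against 11.6%, 9.89%, 16.1%, 13.1% and 22.1% of all genes. The spread was wide for the floored genes, with a standard error of 1.62 for DSE3 against 0.26 for CTS1 in these comparisons.

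CTS1, the endochitinase, had intensities of 204 and 238 in ras2v19, 122 and 122 in ras2a22 and 103 to 128 in the 4 wild-type arrays (118, 128, 120 and 103). It had 46 and 72 in ira2, 85 and 104 in ira1 and 83 and 87 in ira1RA. Arrays of ras2v19 lay above and those of ira2 and ira1RA below all wild-type arrays. The log2 changes were 0.93 ± 0.26 in ras2v19 (limma adjusted p 0.18) and -1.06 ± 0.26 in ira2 (adjusted p 0.0648). CTS1 passed in ira2 under other settings, with adjusted p-values of 0.0336 without low genes, 0.0412 with a trend in the variance, 0.0227 with a floor at the 25th percentile and 0.0197 without ira2 replicate 2 (all limma).

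DSE2 had 150 and 190 in ras2v19 against 46, 123, 55 and 57 in the wild type, and SCW11 had 65 and 57 against 5, 1, 24 and 23. Neither gene's arrays overlapped, with limma adjusted p-values of 0.29 for DSE2 and 0.329 for SCW11. How common such a lack of overlap is among all genes was not counted in SC medium. AMN1 had 32 and 12 in ras2a22 against 59, 47, 38 and 67 in the wild type (-1.38 ± 0.43, adjusted p 0.0794). It passed with a floor at the 25th percentile (adjusted p 0.043) and without ras2a22 replicate 1 (-2.06, adjusted p 0.0465), while DSE4 turned from 0.25 with all arrays to -1.24 without wild-type replicate 2, whose intensity was 1, and then passed (adjusted p 0.0288 in limma).

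Between the ira1RA and the ira1 strain, 0 of the 9 genes passed in limma or at an unadjusted p under 0.05, against 0.126% and 7.95% of all genes. Between the active and the dominant-negative RAS2 allele none passed either, against 6.62% of all genes, and 3 had an unadjusted p under 0.05, against 21% of all genes. Of the 9 estimates 8 were positive, with a median of 0.81. EGT2 had 199 and 117 in ras2v19 and 39 and 102 in ras2a22 (1.27 ± 0.45, limma adjusted p 0.122). It passed without ras2a22 replicate 2 (1.99, adjusted p 0.0419 in limma). CTS1 (0.85 ± 0.30, adjusted p 0.122) passed with the floor at the 25th percentile (adjusted p 0.0451 in limma). DSE4 had 100 and 98 in ras2v19 and 34 and 21 in ras2a22, without overlap (1.89 ± 1.55, limma adjusted p 0.554). Of the septum genes CHS1 (1.53) rose in this comparison, and no gene of the other lists passed by limma. At an unadjusted p under 0.05 there were 1 gene in the RAM list, 1 in the other M to G1 list, 1 in the CLB2 cluster, 3 in the G1 to S list, 2 haploid and 1 sporulation marker. Between these alleles, medians of the other lists ran from -1.28 for the G1 to S genes to 0.58 for the septum genes, with 0.20 for the RAM list, -1.12 for the other M to G1 genes, -0.25 for the CLB2 cluster, 0.15 for the haploid markers and -0.38 for the sporulation markers. Under quantile normalization the median over all genes moved by 0.15 in ira2 and by 0.11 between the RAS2 alleles, so changes in this table are relative to the scaling.

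Along the cAMP series, CTS1 had 178 and 162 at 0 mM, 42 at 0.5 mM, 19 at 1 mM and 51 and 36 at 2 mM. It was thus lowest at 1 mM, where there is 1 array. The change at 2 mM against 0 mM was -1.99 ± 0.30, or 3.96-fold lower (limma adjusted p 0.000702), the only call among the 9 genes, against 19.6% of all genes. It kept its call without any of the 4 arrays, but the slope over all doses, scaled to 2 mM, was -1.77 ± 0.64 with an adjusted p of 0.083 in limma.

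DSE2 and SCW11 were likewise lowest at 1 mM, with wider error. DSE2 had 68 and 76 at 0 mM, 27 at 0.5 mM, 16 at 1 mM and 35 and 35 at 2 mM, and its change of -1.04 ± 0.55 had a limma adjusted p of 0.259. SCW11 had 42 and 57 at 0 mM, 16 at 0.5 mM, 8 at 1 mM and 24 and 31 at 2 mM (adjusted p 0.827). EGT2 had 81 and 68 at 0 mM, 61 at 0.5 mM, 44 at 1 mM and 108 and 109 at 2 mM, so its 2 mM arrays lay above its 0 mM arrays (0.55 ± 0.45, limma adjusted p 0.544). DSE1 (-1.39) and DSE2 passed in a fit of only the 0 and 2 mM arrays, and SWI5 passed without 0 mM replicate 2 (2.83, limma adjusted p 0.0293).

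Of the lists in the 2 mM against 0 mM comparison, the septum genes SUN4 (2.27) and CHS3 (1.06) rose and none fell, with a list median of 0.85 against 0.13 over all genes. Of the other M to G1 genes RME1 (-5.43) fell, with a list median of -0.06, and of the G1 to S genes POL30 (0.81) rose, with a median of 0.59. No gene of the RAM list or of the CLB2 cluster, haploid or sporulation lists passed by limma, and 1 gene in each had an unadjusted p under 0.05. The list medians there were 0.19, 0.88, -0.83 and -1.52.

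**Figure D5:**
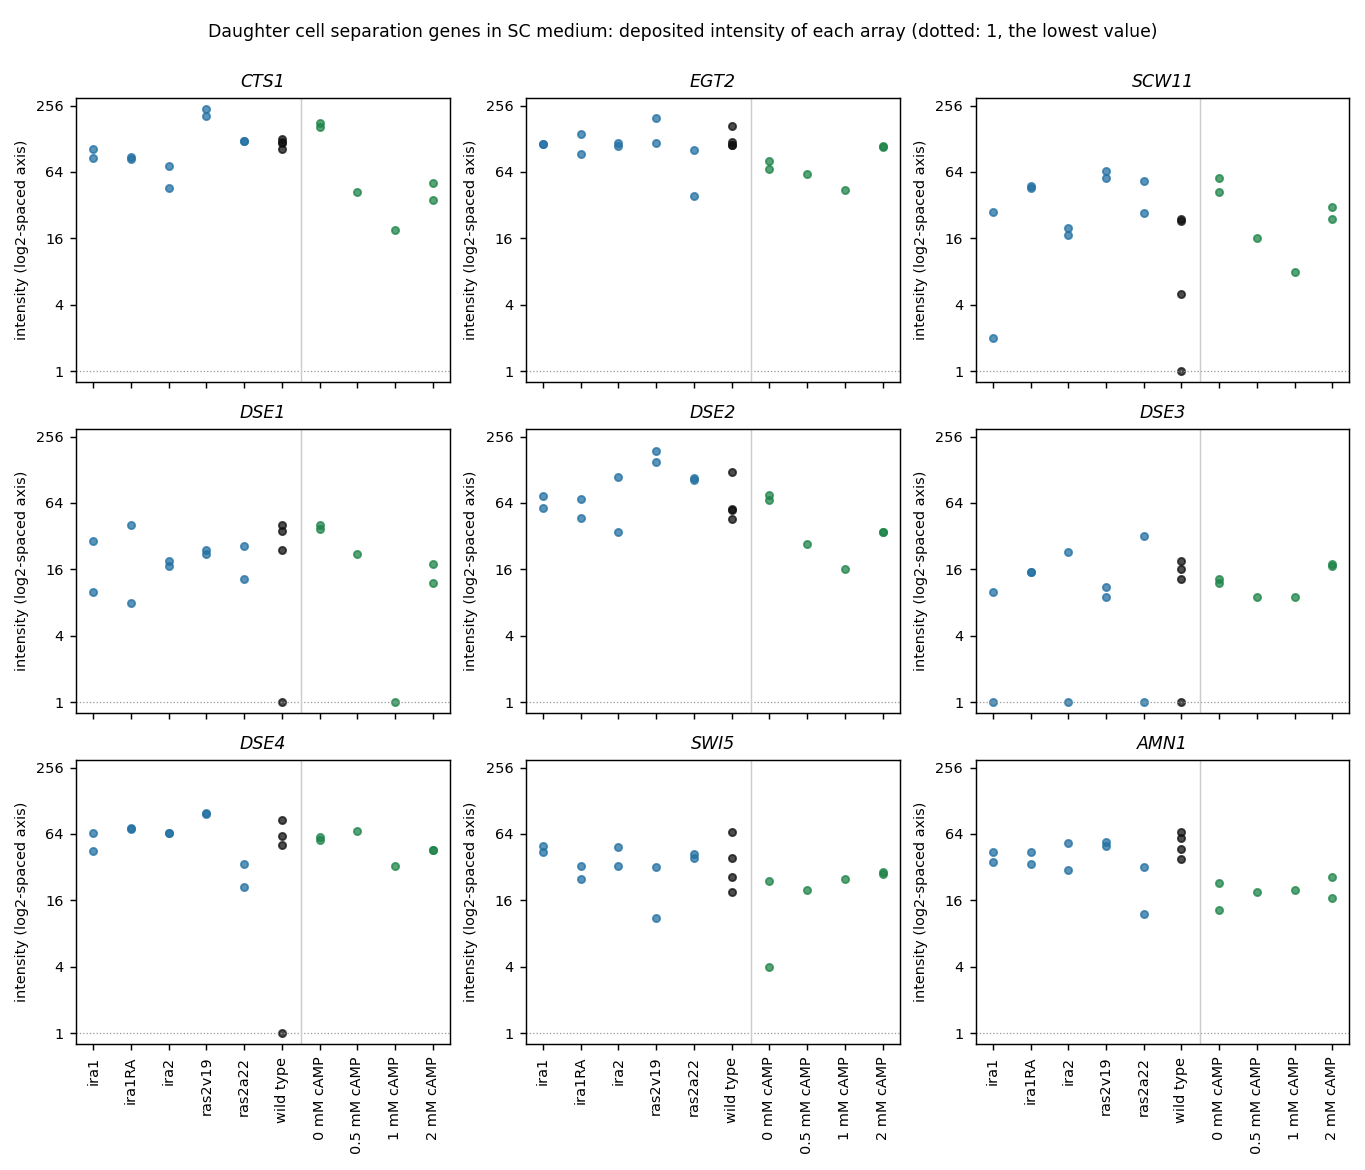
Deposited intensity (axis spaced by log2) of the 9 genes on each of the 20 SC medium arrays. Mutants stand left of the wild type and the cAMP doses run from 0 to 2 mM on the right. CTS1 is at 162 and 178 at 0 mM and at 19 to 51 at the other doses.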

How the data were processed

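Gene levels were measured on Affymetrix arrays. Colony values were deposited as log2, with RMA named in the submitters' processing notes, and were used unchanged. The deposited values of the SC medium table are linear intensity in whole numbers. The sources used here do not say how the authors made these intensities. Each SC array was multiplied by a factor (0.96 to 1.03) that equalised the medians, low values were raised to the 10th percentile of the table, and log2 was taken. A single gene was annotated to 5668 of 6739 colony probe sets and to 5595 of 6178 SC probe sets, and the rest were left out. Where a gene had more than 1 (80 colony and 34 SC genes), the probe set of highest mean stood for it. Names came from GEO's platform annotation and RefSeq assembly R64. The files name no genome build.

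All group means of a table were fitted with limma 3.58.1 in R 4.3.3 (eBayes, 49 and 10 residual degrees of freedom). Comparisons were contrasts of these means, with Benjamini-Hochberg adjustment over all genes of a comparison and a threshold of 0.05. The ± values of changes are standard errors. The code was tested on simulated data. The genes and lists were chosen with earlier results of these data known. The genes named are all 9, up to 4 called genes of a list by absolute change where a fixed rule asked for them (between the forms, between RAS2 alleles, 2 against 0 mM cAMP, single deletions with at least 3 of a list called), and the 5 genes of closest group means. STE2, STE3, MFA2, SPS4, MYO1 and HOF1 were named after their values were seen. So were the list genes named in sok2 and yap6, and those outside the CLB2 cluster in sfl1. In the RAM and CLB2 lists 1 gene each was not analysed here. Replicate numbers were counted as pairing arrays only between the wild-type forms, where the residuals of same-number arrays correlated at 0.113 to 0.254. They correlated at 0.0752 to 0.408 for sok2 and 0.0934 to 0.138 for cup9-yap6 against the filamentous wild type. Such values do not establish a pairing.

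Alternatives were quantile normalization, leaving out genes under the 25th percentile of mean level, mean of probe sets, fitting just the groups of a comparison, a trended and robust eBayes, a block for replicate number, leaving out each array in turn, leaving out libraries that go against their labels or stand apart, the floor raised to the 25th percentile, and a slope over cAMP. No 2 arrays held identical values.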

Additional observations from a re-analysis of the deposited data

Results flagged for a closer look

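In the 4 wild-type arrays of SC medium, 3 values stood far from the other arrays of their gene. On the scaled log2 scale DSE1 read 0.041 in replicate 2 against 4.57 to 5.31 in the others, DSE4 read 0.041 in replicate 2 against 5.66 to 6.42, and DSE3 read -0.010 in replicate 1 against 3.74 to 4.24. Each is an intensity of 1, the lowest of the table. They are 3 of the 36 gene and group combinations tested, and such a gap is seen by chance in about 1 of 20.

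The departures of SWI5 (1.20) and AMN1 (-0.81) from the sum of the sfl1 and yap6 changes in sfl1-yap6 passed the test of the difference itself, in opposite directions. YAP6 was dim in all strains, so its deletion was poorly checked by its own signal.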

How the results depend on the processing

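Of 45 called member changes 17 were kept under every alternative and none reversed. Between the wild-type forms, where replicate numbers were counted as pairing arrays, 7 genes were called with the replicate block as without it. With the block 2307 genes were called in all. In the other comparisons the replicate numbers were not counted as pairing arrays, and the block removed 3 calls, AMN1 in skn7 and sfl1-sok2 and DSE4 in tec1-cup9. With 1 array left out, the members called ranged from 2 to 6 in skn7, from 15 to 33 over the 13 double deletions, from 1 to 4 in the departures, from 0 to 1 in the 5 SC mutants, from 0 to 1 between the RAS2 alleles and from 1 to 2 in 2 against 0 mM cAMP. Fits of only the groups compared called 1 gene each in sfl1, sok2 and yap6, 36 in the double deletions with 17 not called before, 5 departures and 3 genes in 2 against 0 mM cAMP, and quantile normalization called 1 in sfl1. Of the 17, 5 were in sok2-skn7, CTS1 (0.51), EGT2 (0.45), DSE1 (0.42), DSE2 (0.58) and DSE3 (-0.43), with limma adjusted p-values of 0.0173 to 0.0484. Among departures 1 was called without low genes, where SWI5 is not tested. Without tec1-sok2 replicate 1 and sfl1-sok2 replicate 1 there were 6 departures and 37 calls in the double deletions. In the SC mutants 1 was called without low genes, 1 with trend and robust and 2 with the floor at the 25th percentile, which called 1 between the RAS2 alleles. The slope over cAMP called 0. Apart from the genes and arrays that an alternative removes, the cause of these shifts was not tested. A group left with 1 array took its spread from the others.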
